A study of Mus musculus with 6 samples.

Results

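The organic ion and nucleoside solute carriers are the members of the gene families Slco, Slc10, Slc22, Slc28, Slc29 and Slc47, and they were followed here in the intestinal villi of mice that lack *Trpm7* in the epithelium. Members were taken by gene symbol from probe sets with a single symbol in the platform's annotation, with the brightest probe set standing for a gene, and the ileal bile acid carrier *Slc10a2* was left out. The rule gave 53 genes of the 19938 genes with a single symbol, and each of the 53 had 1 probe set. *Slc10a3*, *Slc10a4l* and *Slc22a28* share a probe set with another gene and were not counted. The rule itself used symbols and mean signals and no difference between the groups, but it was chosen with earlier results of these data known.

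The villi came from the whole intestine of littermates at postnatal day 5. The 3 control replicates were *Trpm7 fl/fl* and the 3 mutant replicates were *Trpm7 fl/fl;Villin1-Cre*, so both groups carried the floxed alleles and only the mutants carried the transgene. The *Villin1* promoter drives Cre in epithelial cells along the intestine, where removal of the floxed sequence shifts the reading frame of *Trpm7*, and the other cells of a villus keep the gene. All samples are labelled C57BL/6, whereas the methods of the study name a different inbred background for the floxed line and C57BL/6J for the Cre line. RNA of each replicate was measured on 1 Affymetrix whole-transcript array, and the labels do not say how many pups stand behind a replicate. Values are normalized log2 signals as the authors deposited them, a difference of 1 being a 2-fold change of signal.

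These families carry organic ions and nucleosides across membranes. The Slco proteins are the organic anion transporting polypeptides, which take up bile acids, steroid conjugates, prostaglandins and thyroid hormones. The Slc22 family holds carriers of organic cations, carnitine and organic anions, and the Slc47 proteins (MATE) export organic cations in exchange for protons. Slc28 proteins take up nucleosides together with sodium and Slc29 proteins let nucleosides equilibrate, and in the gut both serve the uptake of nucleosides freed from digested nucleic acids, for which milk is a source.

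On the arrays, *Trpm7* gave log2 signals of 9.11, 8.96 and 9.03 for the controls and 8.03, 7.79 and 7.88 for the mutants (adjusted p = 1.90e-04 from limma). The enterocyte marker *Vil1* averaged 12.25 in control villi and 12.49 in mutant villi. Of 8 enterocyte markers, 3 were higher, 1 was lower and 4 did not pass the test. Thus 50% passed, where 27.9% of all probe sets with a mean signal at or above the arrays' median did. The mean level of the list ran from 12.78 to 12.80 on the control arrays and from 12.92 to 12.93 on the mutant arrays. *Xist* read 10.48 and the Y-linked *Eif2s3y* 3.63 on the array of control replicate 1, and mutant replicate 1 was alike (10.18 and 3.56). Mutant replicates 2 and 3 held *Eif2s3y* (8.38 and 8.50) with little *Xist* (4.76 and 5.26), whereas control replicates 2 and 3 held both *Eif2s3y* (7.71 and 7.84) and *Xist* (9.82 and 9.66). The labels give the sex as unknown. Control replicates 2 and 3 were also more alike (r = 0.9969 over all probe sets) than any other arrays of a group. The counts below were therefore repeated with these controls averaged and with a covariate for Y-linked transcripts.

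Of the 53 carriers, 8 rose and 4 fell in mutant villi, and 41 were not called (a call is a limma adjusted p of 0.05 or less, over all 30177 probe sets). The share called was 22.6%, against 16.9% of all probe sets, of which 8.04% rose and 8.82% fell, and 19.5% of the genes with a single symbol. The carriers' median difference was 0.03 on the log2 scale and that of all probe sets was 0.00. The rises were those of *Slc22a4* (1.39), *Slc22a23* (1.29), *Slc47a1* (1.24), *Slc28a2* (1.24), *Slc28a2b* (1.05), *Slc29a1* (0.58), *Slc22a21* (0.37) and *Slc22a5* (0.36). *Slco4c1* fell by 2.58, *Slc10a5* fell by 1.70, *Slc22a13b* fell by 0.43 and *Slc22a29* fell by 0.39. With a 2-fold change required as well, 5 rose and 2 fell, where 2.53% of all probe sets were called (1.35% higher and 1.17% lower). In all 12 called carriers the mutant values lay apart from the control values, which held for 16 of the 53 carriers and for 34.5% of all probe sets. The 4 carriers with separate groups that did not pass the test were *Slco3a1*, *Slc22a18*, *Slc22a22* and *Slc29a3*.

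**Figure D1:**
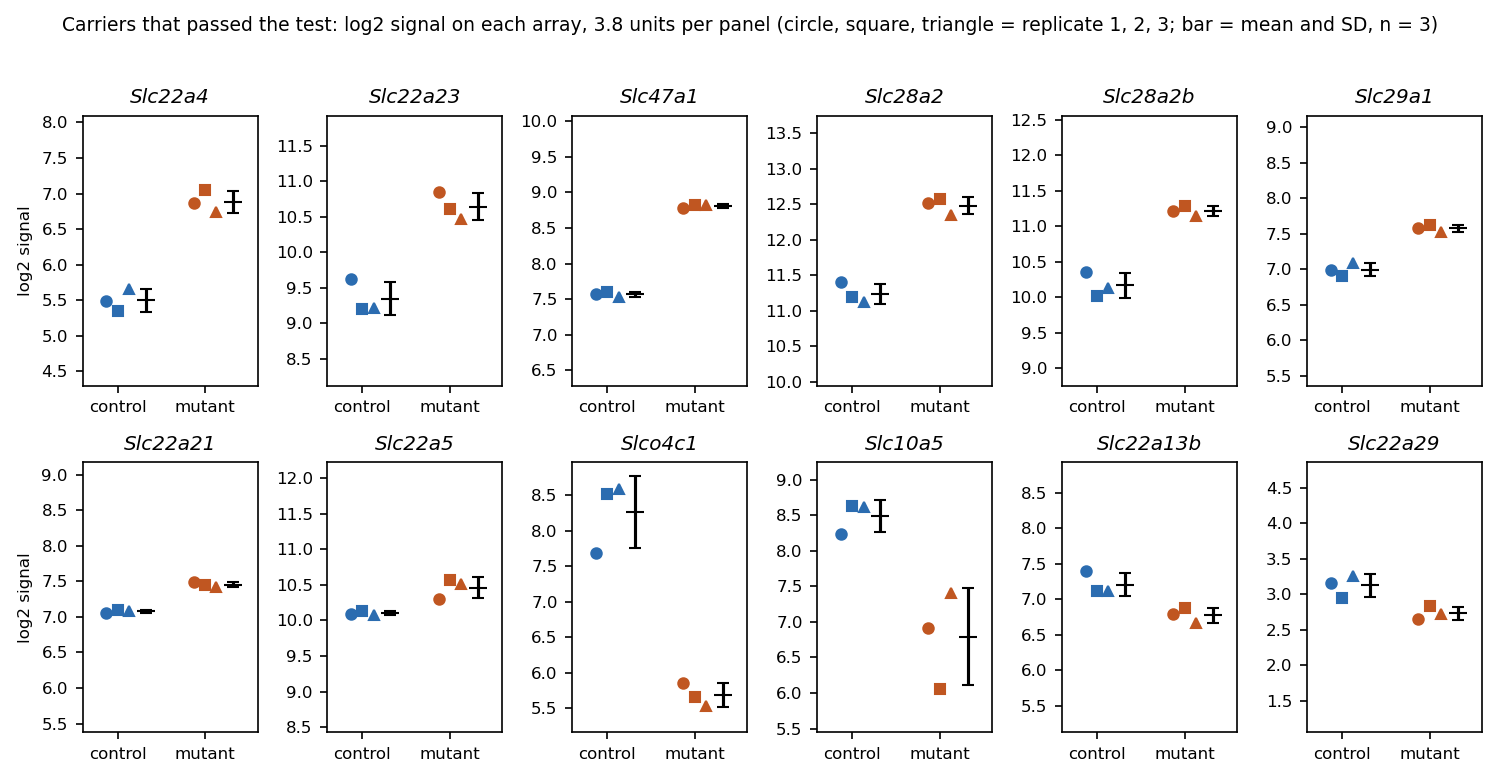
Log2 signal of the 12 carriers that passed the test, on each of 3 control and 3 mutant arrays, with the mean and SD of each group beside the points. In every panel the mutant points lie apart from the control points, with the widest gap in *Slco4c1*.

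The called carriers were mostly those with a clear signal. Mean signals of the carriers over the 6 arrays ran from 2.91 to 12.03, and 21 of the 53 lay at or above the median of all values, 6.27. Of these 21, 7 rose and 3 fell, or 47.6%, where 27.9% of the probe sets at or above the median were called (13.1% higher and 14.8% lower). Of the 32 carriers below it, *Slc22a4* rose and *Slc22a29* fell, or 6.25%, against 5.68% of the probe sets below the median (2.95% higher and 2.72% lower). Whether signals below the median stand above background was not tested, so a difference that involves one is a ratio of signals and not of transcript amounts. Among 324 other solute carriers, 42 rose and 62 fell, or 32.1%.

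**Figure D2:**
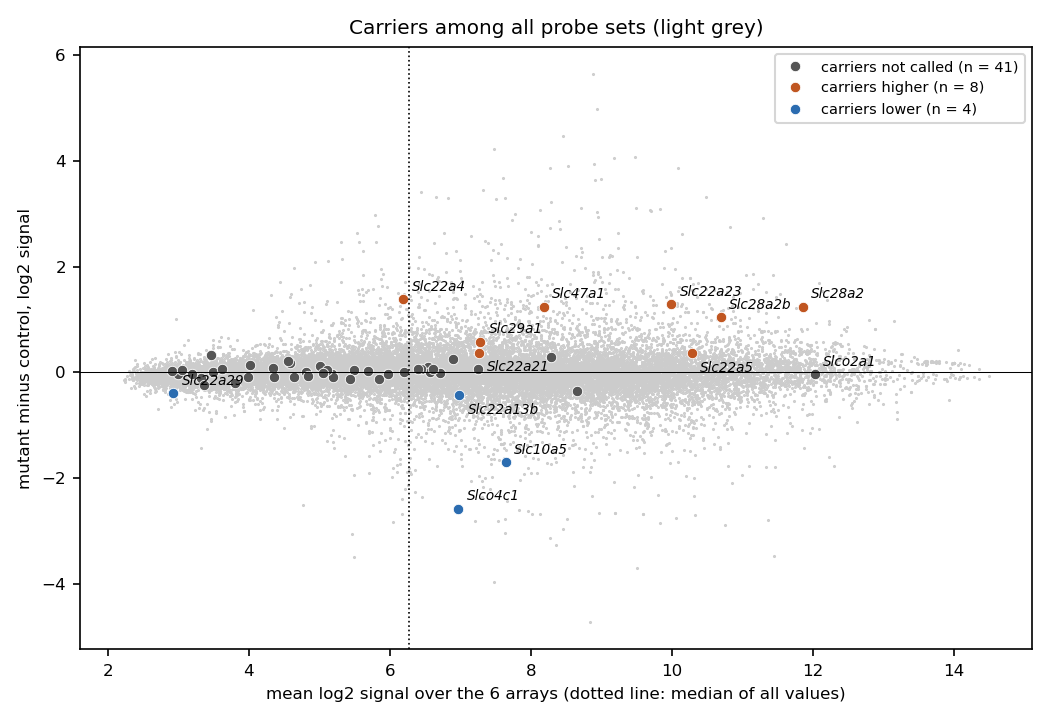
Difference between mutant and control arrays on the log2 scale against mean log2 signal for all 30177 probe sets (light grey) and the 53 carriers. The dotted line is the median of all values, 6.27, and 10 of the 12 called carriers lie to its right, while *Slco2a1* lies near 0 at the far right.

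The purine-selective nucleoside carriers rose. *Slc28a2*, which takes up purine nucleosides and uridine with sodium, read 11.40, 11.19 and 11.12 on the control arrays and 12.52, 12.57 and 12.35 on the mutant arrays. All mutant values lay well above all control values. Its mean rose 2.37-fold, from 11.24 ± 0.15 to 12.48 ± 0.12 (SD, n = 3 per group; limma adjusted p = 2.26e-04). *Slc28a2b*, a close paralog, had signals of 10.36, 10.02 and 10.13 against 11.21, 11.29 and 11.15 and rose 2.07-fold (adjusted p = 4.81e-04 from limma). Control replicate 1 was the highest control for both genes. Since the paralogs are alike in sequence, their probe sets may share signal, and how much of it each gene gives was not tested. *Slc28a1*, the pyrimidine-selective member, had a mean of 6.21 in both groups, with a 95% interval of the difference from −0.18 to 0.18. *Slc28a3*, of broad selectivity, stood at 5.09 ± 0.11 and 5.13 ± 0.09, and its interval ran from −0.16 to 0.24. Neither was called, and both lay below the arrays' median.

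Of the equilibrative carriers, *Slc29a1* rose 1.49-fold. This carrier of purine and pyrimidine nucleosides in the plasma membrane read 6.99, 6.90 and 7.09 on control arrays and 7.58, 7.62 and 7.52 on mutant arrays (difference 0.58, SE 0.08; adjusted p = 0.00227 from limma). *Slc29a3*, a nucleoside carrier of lysosomes, had signals of 8.93, 8.84 and 8.73 against 8.63, 8.31 and 8.52. The groups did not overlap, yet the difference of −0.35 missed the threshold (adjusted p = 0.0544 from limma) and passed it under 8 of 18 alternatives, with adjusted p from 0.0309 to 0.218 over the 18 (0.0478 without mutant replicate 1). *Slc29a2* and *Slc29a4*, the latter a carrier of monoamines, differed by 0.06 and −0.02 and were not called.

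Of 19 measured enzymes of nucleoside metabolism, 4 rose, 1 fell and 14 were not called, with a median difference of −0.01. The 26.3% called is near the 27.9% of all probe sets at or above the arrays' median, where 17 of the 19 lay. The rises were those of the ectoenzymes *Entpd1* (0.95) and *Nt5e* (0.78), which break down extracellular nucleotides, and of the kinases *Uck2* (1.24) and *Dck* (0.45). *Pnp*, the purine nucleoside phosphorylase, fell by 0.55. Of 4 markers of dividing cells, 3 were higher in mutants, where 13.1% of all probe sets at or above the arrays' median rose. The list's mean level ran from 7.5 to 8.30 on the control arrays and from 8.81 to 8.97 on the mutant arrays. Among the controls, replicate 1 had the lowest level of this list (7.5) and the highest signals of *Slc28a2* (11.40) and *Slc28a2b* (10.36). The part of dividing cells in the rise of the carriers was not tested. In bulk villi, fewer cells of a type and less RNA per cell cannot be told apart.

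Of the 5 organic cation and carnitine carriers of the Slc22 family, 3 rose and 2 were not called. The 3 that rose are neighbours in the genome. Of the 5, 2 lay at or above the arrays' median, where 13.1% of all probe sets rose, and below it 2.95% rose. *Slc22a4*, which carries ergothioneine, read 5.49, 5.34 and 5.66 on control arrays and 6.87, 7.05 and 6.74 on mutant arrays. It rose 2.62-fold from a control mean of 5.50 ± 0.16 that lay below the arrays' median (mutant mean 6.89 ± 0.16, SD, n = 3 per group; limma adjusted p = 2.28e-04). *Slc22a21*, a carnitine carrier, rose from 7.06, 7.10 and 7.08 to 7.49, 7.45 and 7.42, a difference of 0.37 with little spread in either group (adjusted p = 0.00798 from limma). *Slc22a5*, the sodium-dependent carnitine carrier of the apical membrane, read 10.09, 10.14 and 10.08 against 10.30, 10.57 and 10.52. Its difference of 0.36 passed the test (adjusted p = 0.0287 from limma), but only mutant replicate 1 could be left out without loss of the call. Without control replicate 1, 2 or 3 the adjusted p was 0.0685, 0.0698 or 0.0878, without mutant replicate 2 or 3 it was 0.0998 or 0.0797, and with control replicates 2 and 3 averaged it was 0.0720. *Slc22a2*, an organic cation carrier best known from kidney, and *Slc22a16*, a carnitine carrier of testis, were near 5.2 in both groups and did not pass the test.

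Of 10 measured genes that make or use carnitine, none rose, 3 fell and 7 were not called, with a median difference of −0.24. All 10 lay at or above the arrays' median. The 30% called were all falls, where 27.9% of all probe sets there were called and 14.8% fell. *Bbox1*, which makes carnitine, fell by 0.64, and the acyltransferases *Crat* and *Crot* fell by 0.50 and 0.37. With the arrays brought to equal quantiles or equal medians, 6 of the 10 fell.

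*Slc47a1*, the exporter of organic cations and drugs in the MATE family, rose with little scatter in either group. It read 7.57, 7.60 and 7.53 on control arrays and 8.78, 8.82 and 8.83 on mutant arrays. The rise was 2.37-fold (7.57 ± 0.04 to 8.81 ± 0.03, SD, n = 3 per group; limma adjusted p = 4.55e-05), and it was the 1 carrier called under every alternative test, scaling and left-out replicate. *Slc47a2*, the kidney-type paralog, was at 5.05 in both groups, with signals from 4.81 to 5.26 in mutant villi and an interval of the difference from −0.27 to 0.26.

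*Slc22a23*, a member of the family whose substrate is not established, rose 2.45-fold. It read 9.62, 9.20 and 9.22 on control arrays and 10.84, 10.61 and 10.47 on mutant arrays (difference 1.29, SE 0.14; adjusted p = 8.03e-04 from limma), and replicate 1 was the highest of each group. The imprinted *Slc22a18* was at 8.18, 8.02 and 8.21 against 8.70, 8.28 and 8.30, and its difference of 0.29 was not called (adjusted p = 0.167 from limma). *Slc22a14*, *Slc22a15* and *Slc22a17*, the last a receptor of the lipocalin that binds siderophores, differed by −0.08 to 0.07.

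Of the 13 organic anion carriers of the Slc22 family, none rose, 2 fell and 11 were not called, and the 11 differed by −0.24 to 0.13. The 15.4% called were all falls, where 16.9% of all probe sets were called and 8.82% fell. Only 3 of the 13 lay at or above the arrays' median, however, and of the probe sets below it 5.68% were called and 2.72% fell. Among these 11 were the kidney carriers *Slc22a6*, *Slc22a8* and the urate carrier *Slc22a12*, at mean signals from 5.44 to 6.57. *Slc22a22*, a prostaglandin carrier of kidney, differed by −0.24 without overlap between groups (adjusted p = 0.152 from limma). *Slc22a13b*, which RefSeq lists as a transcribed pseudogene beside the urate and nicotinate carrier *Slc22a13*, read 7.39, 7.11 and 7.11 on control arrays and 6.79, 6.87 and 6.66 on mutant arrays (adjusted p = 0.0252 from limma). Its call was lost without control replicate 1 (adjusted p = 0.0521), mutant replicate 1 (0.0652) or mutant replicate 3 (0.0733). *Slc22a13* itself differed by −0.02. *Slc22a29* had signals of 3.16, 2.95 and 3.26 against 2.65, 2.83 and 2.72, far below the arrays' median (adjusted p = 0.0322 from limma). Its call held only when control replicate 2 was the one left out (adjusted p = 0.0237), and it was lost without control replicate 1 (0.0816) or 3 (0.103) and without mutant replicate 1 (0.102), 2 (0.0545) or 3 (0.0786). Genes of this cluster are alike, and *Slc22a28*, *Slc22a29* and *Slc22a30* share a further probe set that differed by −0.13 and was not called.

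Among the organic anion transporting polypeptides, *Slco4c1* fell 5.97-fold and no other member passed the test. *Slco4c1*, known as a carrier of cardiac glycosides and thyroid hormones in kidney, read 7.68, 8.51 and 8.59 on control arrays and 5.86, 5.66 and 5.53 on mutant arrays. Control replicate 1 was lower than the other controls and still well above the highest mutant. The mean went from 8.26 ± 0.50 to 5.68 ± 0.17 (SD, n = 3 per group; limma adjusted p = 3.24e-04), and the mutant mean lay below the arrays' median. Without any 1 replicate the fall ran from −2.87 to −2.41. Of 10 measured genes of thyroid hormone handling, none rose, 6 fell and 4 were not called, or 60% called. At or above the arrays' median, where 8 of the 10 lay, 27.9% of all probe sets were called and 14.8% fell. A link of these genes to *Slco4c1* was not tested. *Dio1*, a deiodinase, fell by 1.40.

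The remaining 14 members of the Slco family differed by −0.19 to 0.33. *Slco2a1*, the prostaglandin transporter, was nearly the same on every array, with 12.08, 12.01 and 12.03 in control villi and 12.08, 12.03 and 11.93 in mutant villi. The 95% interval of its difference, −0.20 to 0.14, leaves out a change of 2-fold in either direction. Of 11 measured genes of prostaglandin handling, in contrast, 5 were higher and none lower (45.5% called). Of the 11, 7 lay at or above the arrays' median, where 13.1% of all probe sets were higher and 14.8% lower. The 5 include the synthase *Ptgs2* (1.70), the receptor *Ptger4* (0.84) and the reductase *Ptgr1* (2.36). The count of higher genes was 2 without control replicate 2, without control replicate 3 or without mutant replicate 1. It was 3 without control replicate 1, without mutant replicate 2 or with control replicates 2 and 3 averaged. *Slco3a1* was at 6.75, 6.79 and 6.79 against 7.03, 7.11 and 6.93, and its difference of 0.25 was not called (adjusted p = 0.0628 from limma). *Slco2b1*, the polypeptide best known from the intestinal brush border, was at 6.49 ± 0.08 and 6.59 ± 0.04 and did not pass the test. The Slco1 and Slco6 members, known mainly from liver, brain and testis, had mean signals from 2.91 to 4.81.

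Of the bile acid family without *Slc10a2*, *Slc10a5* fell and the other 4 members did not pass the test. *Slc10a5*, an orphan carrier known from liver and kidney, read 8.23, 8.63 and 8.62 on control arrays and 6.91, 6.06 and 7.41 on mutant arrays. The mean was 8.49 ± 0.23 in controls and 6.79 ± 0.68 in mutants (SD, n = 3 per group; difference −1.70; adjusted p = 0.00745 from limma), with a wider spread among mutants than controls. Without mutant replicate 2, the lowest, it fell by 1.33, and without mutant replicate 3, the highest, it fell by 2.01. *Slc10a7*, a protein of the secretory pathway, was at 7.22 ± 0.12 and 7.29 ± 0.07. *Slc10a2* itself had a mean of 4.22 in controls and 6.86 in mutants. It belongs to 15 genes of bile acid and conjugate handling, of which 8 rose, 2 fell and 5 did not pass the test (66.7% called). Of the 15, 12 lay at or above the arrays' median, where 27.9% of all probe sets were called. The efflux pump *Abcb1a* rose by 2.75 and the conjugate pump *Abcc2* by 0.91, and *Abcb11*, the bile salt export pump, fell by 2.77.

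**Figure D3:**
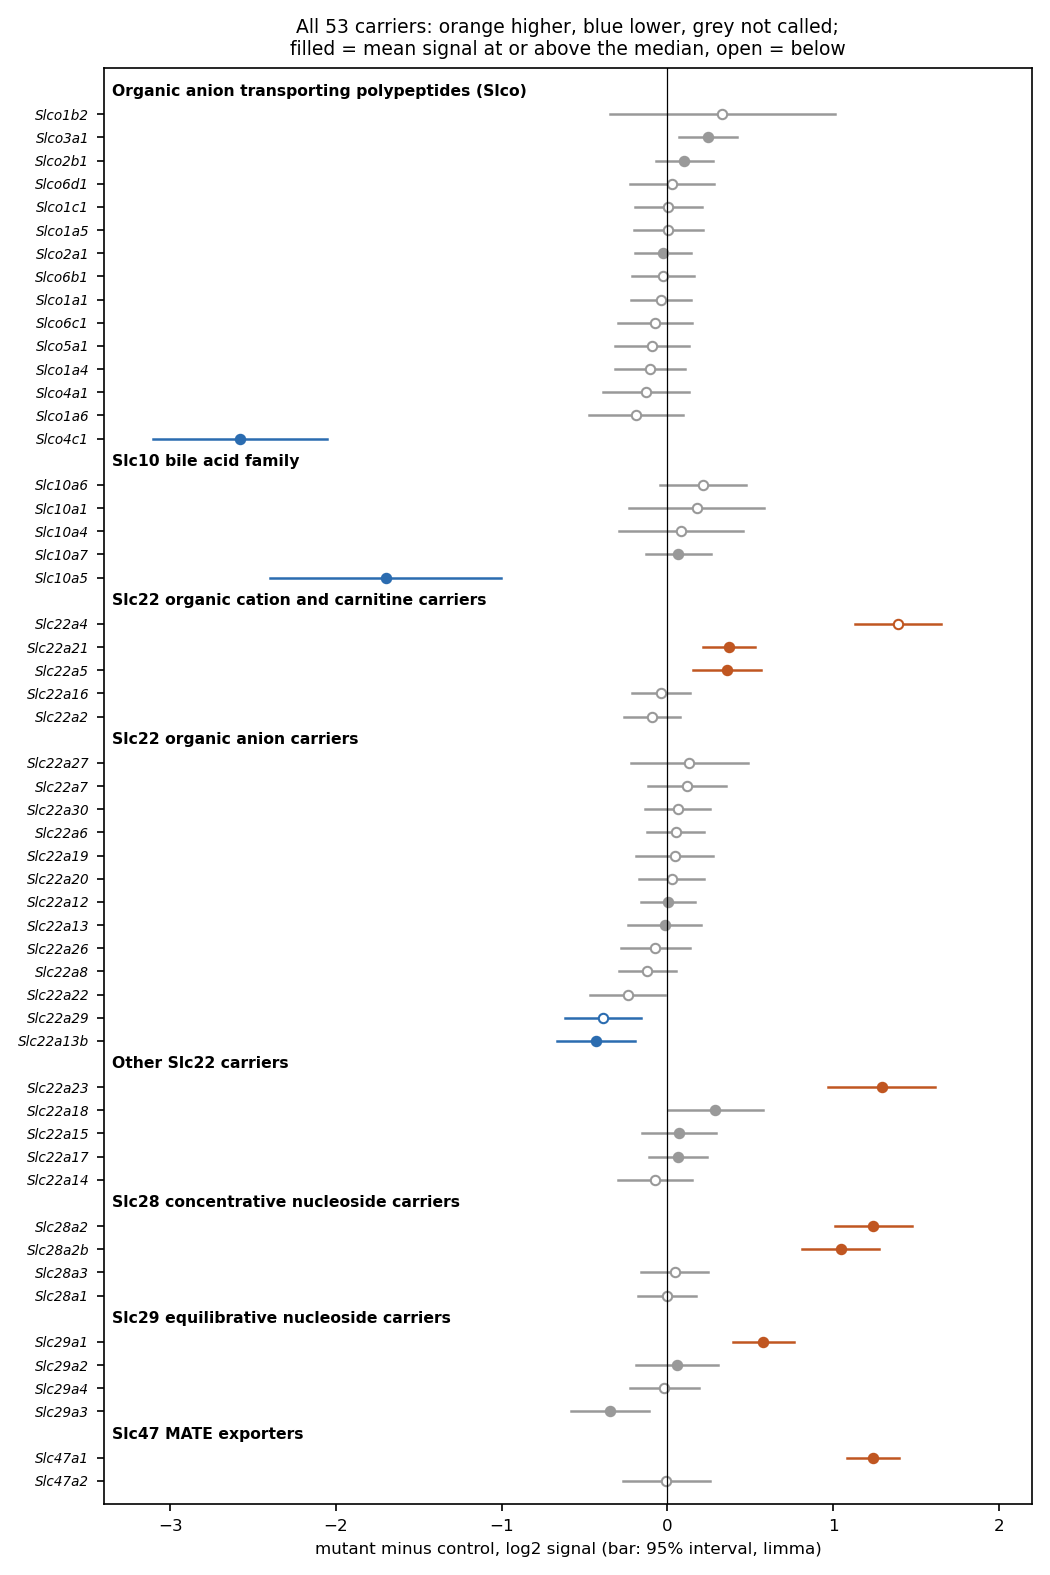
Difference between mutant and control arrays on the log2 scale for each of the 53 carriers, by family, with the 95% interval from limma. Orange marks the 8 that rose, blue the 4 that fell and grey the rest. Filled points have a mean signal at or above the median.

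Several called carriers lie next to each other in the genome, by the order of protein-coding genes in RefSeq (GRCm38.p6). *Slc28a2* and *Slc28a2b* are neighbours with 0 genes between them, and both rose. *Slc22a5*, *Slc22a21* and *Slc22a4* follow each other with 0 genes between, and all 3 rose, with *Slc22a4* at 1.39 and the others at 0.36 and 0.37. Other called genes stand beside members that were not called, namely *Slc47a1* (1.24) beside *Slc47a2* (−0.01), *Slco4c1* (−2.58) beside *Slco6c1* (−0.08), with the noncoding *Slco6b1* (−0.03) between them, and *Slc22a29* (−0.39) beside *Slc22a30* (0.06). The *Slc28a2* pair lies on chromosome 2, as does *Trpm7*, with 28 genes between. Of 27 of these genes that were measured, 2 rose and 3 fell, or 18.5%, against 16.9% of all probe sets. With a 2-fold change required as well, 2 rose and 2 fell, where 2.53% of all probe sets were called. Their differences ran from −3.69 to 1.44, and in 13 of the 27 the groups did not overlap, against 34.5% of all probe sets. Controls and mutants both carried the floxed alleles on this chromosome, and whether the DNA around *Trpm7* otherwise differed between the groups was not tested.

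**Figure D4:**
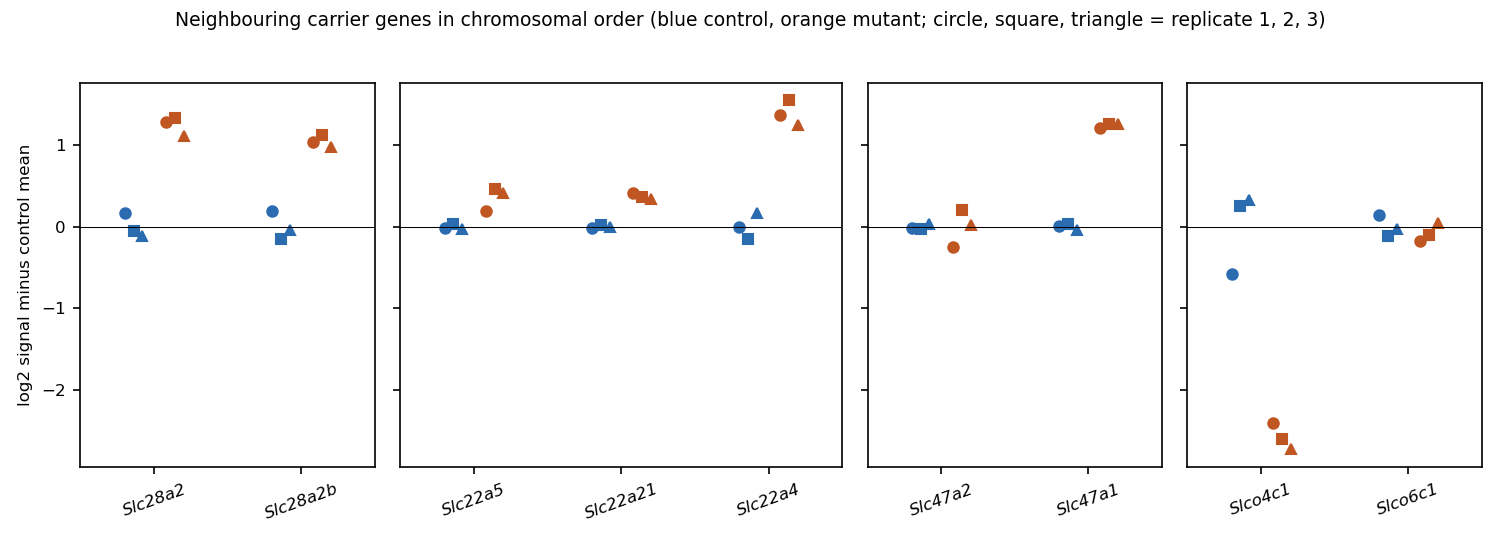
Log2 signal of neighbouring carrier genes on each array, as the difference from the gene's control mean, in chromosomal order within each panel. Mutant values of *Slc28a2* and *Slc28a2b* and of the 3 genes *Slc22a5*, *Slc22a21* and *Slc22a4* lie above the controls, while *Slc47a2* and *Slco6c1* lie among them.

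Promoter sequences were given by RefSeq (GRCm38.p6, from 250 bases before to 50 bases after the start) for 46 of the 53 carriers and 8 of the 12 called ones. Those of 4 neighbours that rose are shown to compare their makeup, on the gene's own strand, with capitals at each CG pair, and *Slc22a21* had no entry. They lie at chr2:122426185-122426484 (plus strand, *Slc28a2*), chr2:122484691-122484990 (plus strand, *Slc28a2b*), chr11:53891654-53891953 (minus strand, *Slc22a5*) and chr11:54028055-54028354 (minus strand, *Slc22a4*).
Slc28a2: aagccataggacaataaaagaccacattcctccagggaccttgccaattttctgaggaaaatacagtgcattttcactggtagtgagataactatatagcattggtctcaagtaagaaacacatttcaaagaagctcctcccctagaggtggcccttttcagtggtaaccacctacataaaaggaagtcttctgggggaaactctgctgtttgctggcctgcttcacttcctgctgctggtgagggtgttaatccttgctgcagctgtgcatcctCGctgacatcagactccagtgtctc
Slc28a2b: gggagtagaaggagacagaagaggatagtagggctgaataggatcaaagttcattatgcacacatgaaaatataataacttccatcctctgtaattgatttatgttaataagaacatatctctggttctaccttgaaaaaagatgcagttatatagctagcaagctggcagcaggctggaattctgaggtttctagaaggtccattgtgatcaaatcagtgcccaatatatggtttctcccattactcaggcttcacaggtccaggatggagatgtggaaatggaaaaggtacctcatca
Slc22a5: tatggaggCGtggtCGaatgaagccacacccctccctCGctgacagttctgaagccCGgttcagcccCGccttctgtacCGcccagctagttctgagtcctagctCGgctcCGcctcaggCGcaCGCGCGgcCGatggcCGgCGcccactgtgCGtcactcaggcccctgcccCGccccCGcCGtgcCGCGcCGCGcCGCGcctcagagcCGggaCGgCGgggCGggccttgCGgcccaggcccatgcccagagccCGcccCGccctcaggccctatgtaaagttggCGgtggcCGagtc
Slc22a4: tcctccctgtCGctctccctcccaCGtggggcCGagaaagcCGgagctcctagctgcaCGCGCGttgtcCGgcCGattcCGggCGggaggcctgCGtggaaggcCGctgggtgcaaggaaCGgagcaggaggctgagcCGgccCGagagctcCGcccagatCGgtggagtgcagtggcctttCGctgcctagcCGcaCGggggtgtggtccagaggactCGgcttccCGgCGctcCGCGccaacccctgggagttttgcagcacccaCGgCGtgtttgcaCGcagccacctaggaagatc
The *Slc28a2* and *Slc28a2b* sequences hold 1 and 0 CG pairs and 46.7% and 40% G and C, whereas those of *Slc22a5* and *Slc22a4* hold 34 and 29 CG pairs and 72.7% and 69%. The median over all 32851 promoter sequences was 7 CG pairs and 52.7%.

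Of 3 motifs searched on both strands, the core of the antioxidant response element, TGACNNNGC, was in the promoters of 8 of 46 carriers, or 9 of 59 promoter sequences (15.3%), against 12.4% of all promoter sequences. Among called carriers it was in *Slc29a1*, which rose, at 2 of its starts, and in *Slco4c1*, which fell. The promoter of *Slco4c1* at chr1:96872122-96872421 (minus strand) is shown with this core in capitals, once on the gene's strand at 85 bases before the start and once, 28 bases before it, on the opposite strand.
Slco4c1: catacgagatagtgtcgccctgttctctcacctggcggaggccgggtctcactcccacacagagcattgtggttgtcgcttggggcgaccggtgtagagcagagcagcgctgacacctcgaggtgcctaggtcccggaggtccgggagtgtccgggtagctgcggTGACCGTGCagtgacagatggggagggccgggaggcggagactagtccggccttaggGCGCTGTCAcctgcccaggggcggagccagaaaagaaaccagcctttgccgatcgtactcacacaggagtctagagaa
The HNF1 motif was in the promoter of *Slc22a29* alone, against 0.399% of all promoter sequences, and the HNF4 motif, CAAAGTCCA, was in none of the 46, against 0.475%. A match is a string of letters and not a bound site.

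Of 12 measured regulators and scaffolds of such carriers, 1 rose, 2 fell and 9 did not pass the test. All 12 lay at or above the arrays' median, and the 25% called is near the 27.9% of all probe sets there. *Ahr*, the aryl hydrocarbon receptor, rose by 0.46, the receptor *Rxra* fell by 0.44 and *Pdzk1ip1*, a partner of the scaffold that anchors carriers in the brush border, fell by 1.46. Neither *Nr1i2* nor *Nr1i3*, the xenobiotic receptors, nor *Nfe2l2*, which encodes NRF2, was called.

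Some markers of other cells moved with genotype as well. Of all probe sets, 27.9% of those at or above the arrays' median were called and 5.68% of those below it. All 4 measured goblet cell markers fell, and their mean level ran from 11.35 to 11.47 on the control arrays and from 8.93 to 9.08 on the mutant arrays. Of 5 Paneth cell markers 2 rose and 1 fell, of 5 enteroendocrine markers 1 rose and 2 fell, and of 4 markers of enteric neurons and glia 1, the glial *S100b*, fell by 2.06, while the glial *Sox10* differed by 0.05. None of the 4 markers of tuft cells was called, nor were most of those of leukocytes (1 of 6 higher), endothelium (1 of 6 lower) and fibroblasts and smooth muscle (1 of 6 higher). The part of goblet cells in the falls of *Slco4c1* and *Slc10a5* was not tested.

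Mutant replicate 3 stood apart in transcripts known from liver. *Alb*, the albumin gene, was at 12.13 on this array and between 5.55 and 8.57 on the other 5. *Apoh* was at 7.25 against at most 5.22, and *Cyp2e1* at 6.67 against at most 5.27. *Ttr* did not follow, at 11.13 within the range of the others. Over the 4 measured hepatocyte markers, 0 rose and 1, *Ttr*, fell, and the mean level ran from 6.93 to 7.27 on the control arrays and from 6.35 to 9.30 on the mutant arrays. The hepatocyte carriers *Slco1b2* and *Slc10a1* were raised on the same array, *Slco1b2* at 4.41 against 3.10 to 3.41 and *Slc10a1* at 5.12 against 4.37 to 4.55. These were the 2 carriers whose value on this array lay farthest above the other 5. Without it their differences went from 0.33 to −0.06 and from 0.18 to −0.04. Other carriers known from liver, such as *Slco1a1*, *Slco1a4* and *Slc22a7*, were not raised there. The 8 rises were all called without mutant replicate 3 apart from that of *Slc22a5*, and of the 4 falls those of *Slco4c1* and *Slc10a5*.

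**Figure D5:**
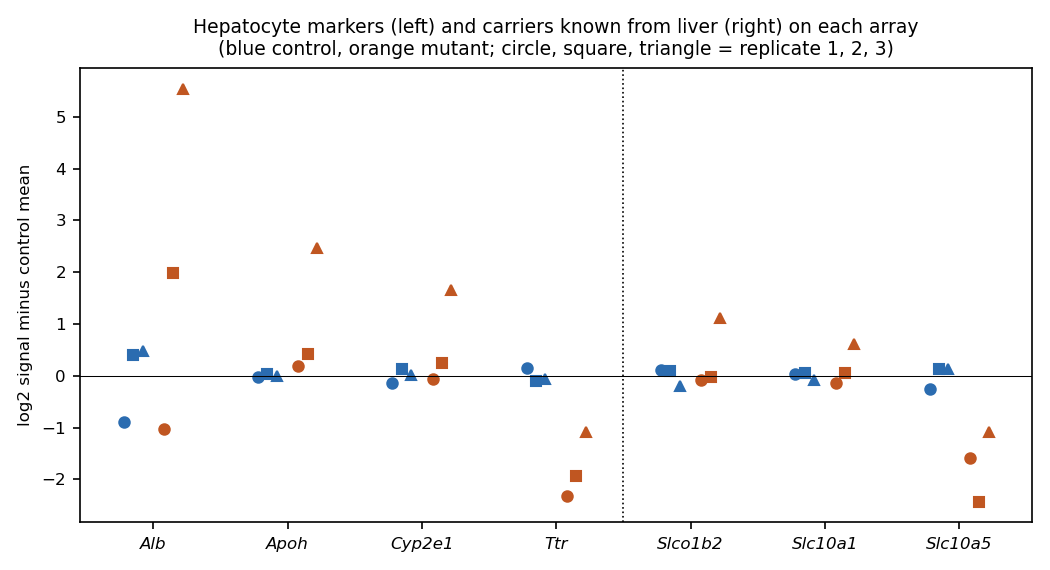
Log2 signal of 4 hepatocyte markers and of 3 carriers known from liver on each array, as the difference from the gene's control mean. The orange triangle of mutant replicate 3 lies above all other arrays for *Alb*, *Apoh*, *Cyp2e1*, *Slco1b2* and *Slc10a1*, and not for *Ttr* or *Slc10a5*.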

How the data were processed

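Villi of 3 control and 3 mutant replicates were profiled, and the authors deposited normalized log2 signals, covering 30177 probe sets on each array. The labels state biotin labelling by the Affymetrix whole-transcript protocol. How the signals were summarised and normalized, and with which software, was not found in the sources used here, and no detection calls were used. The median lay between 6.24 and 6.30 on the 6 arrays.

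The platform's annotation gave 21789 probe sets a single symbol and 1621 several, and left 6767 unlisted. Symbols were updated through Entrez IDs in RefSeq. Mutants were set against controls in limma 3.58.1 under R 4.3.3 (lmFit and eBayes, prior degrees of freedom 3.92), adjusted by Benjamini-Hochberg over all probe sets. An exact permutation test of 3 against 3 cannot give a p under 0.1. Precision is limited by the number of arrays, and where replicates are not separate animals, p-values measure only the spread between these samples. Members, families, lists and motifs were chosen with earlier results of these data known. Every member that passed the test was named, with the highest-signal member of each family. The script was tested on simulated data. Alternatives changed the test, scaling, filters and replicates. Tables and figures were made with pandas 2.3.3 and matplotlib 3.10.9 in Python 3.11.15.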

Additional observations from a re-analysis of the deposited data

How the results depend on the processing

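With the equal-variance test of Student, 7 carriers rose and 1 fell, and with that of Welch 1 rose and 0 fell (9 higher and 5 lower at an unadjusted p below 0.05), where limma had 8 and 4 (10 and 6 unadjusted). Over all probe sets these tests called 1116 and 89 higher and 1334 and 131 lower, against 2427 and 2661. Student's test and Welch's both lost *Slc10a5*, *Slc22a5*, *Slc22a13b* and *Slc22a29*, and Welch's kept *Slc47a1* alone. With a fold change of at least 2 as well, 5 carriers rose and 2 fell, and 408 probe sets rose and 354 fell. Without 1 replicate, between 7 and 8 carriers rose and between 2 and 4 fell, 2 of them falling without control replicate 1 and 2 without mutant replicate 3. Over all probe sets, between 1561 and 2037 rose and between 1688 and 2348 fell.

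Under the other alternatives the carrier counts stayed within 1.5 times those reported. Centring on the median gave 8 higher and 5 lower carriers, and 1996 higher and 3456 lower probe sets. A covariate for Y-linked transcripts, chosen after the data had been seen, gave 8 and 5, and averaging control replicates 2 and 3 gave 7 and 4. Where 5 fell, the additional one was *Slc29a3*. The deviations of same-numbered arrays from their group means correlated at 0.174, 0.039 and 0.119. Whether the replicate numbers pair the samples, for instance by litter, cannot be told from 3 such values. With the number as a replicate block, 8 carriers rose and 3 fell, as *Slc22a29* was not called. *Slco2a1*, which was not called, ran from −0.06 to 0.015 without 1 replicate and changed sign without mutant replicate 3 (0.015). Of 250 recomputed differences of 14 named genes, 208 kept direction and side of the threshold, 33 lost their call, 8 gained one and 1 reversed. Each carrier has 1 probe set, so the probe set with the lowest mean was the same.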
